A study of Homo sapiens with 26 samples.

Results

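Chromosome 7 was described as 1536 bins of 100 kb (hg19), out of 26331 used bins in the genome, in 26 single cells of the human leukaemia line KBM7, a near-haploid line from chronic myeloid leukaemia. The members are the bins of chromosome 7 that had a value and were above 0 in at least 1 of the 26 cells. Of the 1592 bins of the chromosome in the deposited table, 34 had no value and 22 were at 0 in every cell. All cells belong to 1 clone, 5-8, are labelled 1N (haploid) and DamOnly, and were grown without a second condition to compare with. Dam methylation was induced for 15 h with 0.5 nM Shield1, a compound used to stabilise proteins that carry a destabilising domain. The smallest 2% of the cells by scatter that carried both Fucci cell cycle markers were then sorted singly. The series title names lamin B1, whereas the sample labels name Dam alone, and the labels were followed.

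Dam is a bacterial enzyme that methylates the adenine of GATC. DpnI cuts only the methylated site, and amplification of the cut fragments shows where the enzyme reached the DNA. Unfused Dam is commonly read as a measure of open chromatin. Chromosome 7 is a mid-sized human chromosome with gene-rich bands such as 7p22, 7q11.23 and 7q22, known gene-poor stretches such as 7q21.11 and 7q35, and segmental duplications around the centromere and in 7q11.23. In G banding, light bands are known as generally gene-rich and early replicating, and dark bands as gene-poor and late replicating. No band table for hg19 was among the files used, so band limits and stains were taken from general knowledge of the hg19 ideogram, to the nearest bin. The same holds for the bands given for named genes, which are textbook assignments and were not measured.

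GATC is the only sequence the assay can report, so the motif was looked for in the promoter windows of RefSeq (GRCh38.p14, 250 bases before to 50 after a start). Of 1779 windows on chromosome 7, 757 held GATC (42.6%), against 14655 of 35116 in all (41.7%). GATC reads the same on both strands. Below are 2 of the windows, from genes of neighbouring bands whose levels differed (values further down). AUTS2, a regulator of transcription in the developing brain, lies in 7q11.22. LIMK1, a kinase that acts on the actin cytoskeleton, lies in 7q11.23 inside the interval deleted in Williams-Beuren syndrome. Capitals mark GATC, both genes are on the + strand, and the windows were not placed on the hg19 bins.
AUTS2 promoter: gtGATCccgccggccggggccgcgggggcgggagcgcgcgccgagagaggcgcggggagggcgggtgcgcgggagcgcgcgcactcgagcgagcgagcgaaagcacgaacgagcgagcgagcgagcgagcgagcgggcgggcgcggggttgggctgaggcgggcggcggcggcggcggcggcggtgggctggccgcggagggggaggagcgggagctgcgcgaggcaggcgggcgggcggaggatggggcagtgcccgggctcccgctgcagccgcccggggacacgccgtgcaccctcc
LIMK1 promoter: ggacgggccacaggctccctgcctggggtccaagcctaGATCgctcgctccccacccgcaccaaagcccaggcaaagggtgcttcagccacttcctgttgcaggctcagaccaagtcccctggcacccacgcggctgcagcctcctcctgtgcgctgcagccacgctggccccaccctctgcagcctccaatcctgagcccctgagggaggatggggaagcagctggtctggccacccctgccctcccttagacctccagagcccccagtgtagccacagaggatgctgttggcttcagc
Each of these windows holds 1 GATC. The other LIMK1 window in the table holds 0. A match is a description of these letters and says nothing about methylation of the site, and a 100 kb bin is far wider than a promoter.

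A bin value is the authors' ratio of observed over expected signal. The level of a region in a cell is its mean ratio divided by the mean ratio of all other autosomes in the same cell. A level of 1 is thus the average of the other autosomes. Chromosome 8 has no used bin, so it is missing from this average and from every background over all chromosomes. Chromosomes 9 and 22 enter as the pieces labelled 9:22 and 22:9. The 22 chromosomes ranked below are counted in this way and include X. Whole counts behind the ratios could be recovered. They came to between 1143 and 8984 per cell on chromosome 7 (median 2319.5), or 0.744 to 5.85 counts per used bin, and to 75503 over all cells. One bin in one cell therefore carries a large counting error, and most values below are averages over regions or cells. A region was placed above or below 1 when it was on that side in 21 or more cells (80% of 26). Cells of 1 clone are not replicate cultures, so each SD is a spread between cells and no p-value was computed.

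Cell 22 stood apart on this chromosome. Across 42 bands its levels correlated with the mean of the other cells at -0.14 (Pearson's r over bands of 1 chromosome, which are not independent), whereas the other 25 cells ran from 0.553 in cell 23 to 0.947. It was the highest of all cells in 12 bands, 8 of them among the 13 darkest, and the lowest in another 12. In 7p21.2 cell 22 had a level of 2.75 where the other cells averaged 0.656, and in 7q32.2 it had 0.211 where they averaged 1.504. Its total of 21105 counts was the lowest but 1, and the part of depth in this pattern was not tested. Many of the levels and contrasts below, though not all, are given with and without it.

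**Figure D1:**
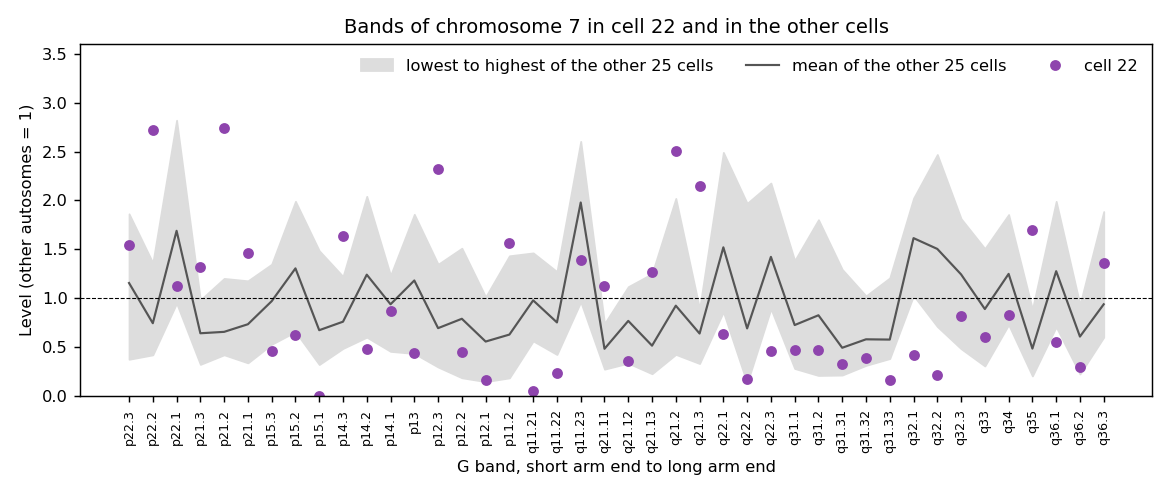
Level of each G band of chromosome 7 (y axis, other autosomes = 1) in order from the short arm end (x axis) in cell 22 (points), with the mean of the other 25 cells (line) and their lowest to highest value (shading). Cell 22 lies above the shading in 12 bands, such as 7p22.2 and 7p21.2, and under it in another 12, such as 7q22.1 and 7q32.1.

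The chromosome as a whole had a level of 0.904 ± 0.0955 (SD, n = 26 cells) and lay below 1 in 23 cells. Single cells ran from 0.617 (cell 3) to 1.06 (cell 23) around a median of 0.919. Without cell 22 the mean was 0.901. With 7p22 and 7q22 left out the level was 0.851 ± 0.0988, below 1 in 25 cells.

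The 2 arms had nearly the same level. The short arm (577 used bins) stood at 0.883 ± 0.118, with a range from 0.548 in cell 3 to 1.23 in cell 22 and a median of 0.884. The long arm (959 used bins, after a gap without used bins that ends at 61500000) stood at 0.916 ± 0.117, from 0.659 in cell 3 to 1.14 in cell 21 with a median of 0.922. The mean log2 ratio of the short over the long arm was -0.05 ± 0.22, a difference smaller than the spread between cells, and the short arm was higher in 8 cells and lower in 18. Without cell 22 it was -0.08 ± 0.18. Only the short arm was on a side (below 1 in 23 cells). The long arm was below 1 in 20 cells, 1 short of the rule.

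Differences within the arms were much larger than between them. Of 44 listed bands, 42 had at least 5 used bins, and these ran from 0.487 ± 0.2 in 7q31.31 to 1.96 ± 0.415 in 7q11.23. By the rule 8 bands were above 1, 23 below and 11 on neither side. The 8 were 7p22.1, 7q11.23, 7q22.1, 7q22.3, 7q32.1, 7q32.2, 7q32.3 and 7q36.1. Of them 7 are on the long arm and only 7p22.1 is on the short arm. Bands of other chromosomes were not counted, so these numbers have no background of their own kind. In windows of 1 Mb over all chromosomes, 20.7% were above 1 by the same rule and 42.6% below, so more regions lie below than above there too.

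**Figure D2:**
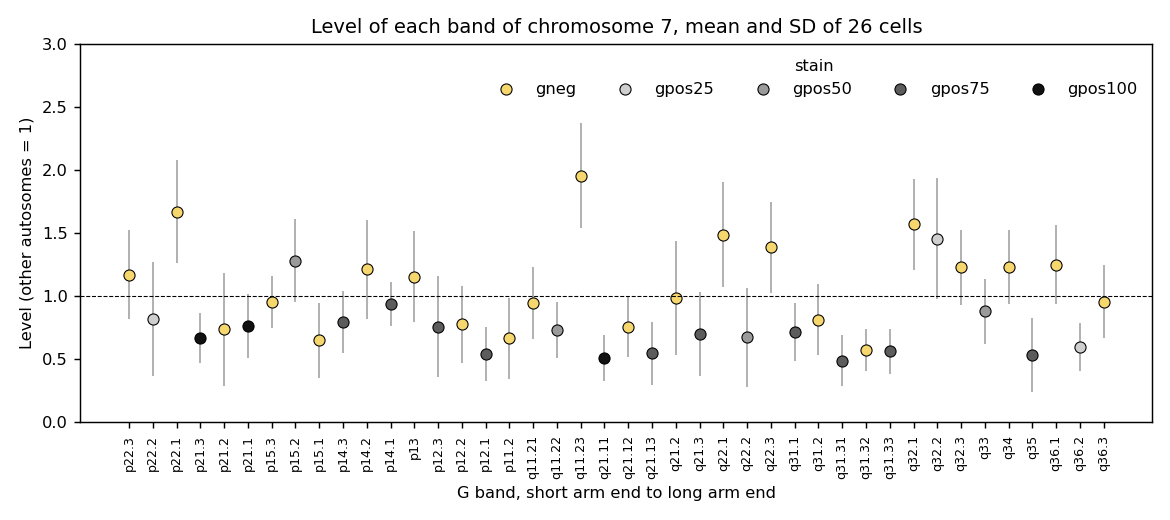
Level of each of 42 bands (y axis, other autosomes = 1; mean and SD of 26 cells) in order from the short arm end to the long arm end, coloured by G-band stain from light (gneg) to darkest (gpos100). The highest points are 7q11.23 at 1.96 and 7p22.1 at 1.67, and none of the 13 gpos75 and gpos100 bands lies above 1.

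7p22, at the end of the short arm, is a gene-rich band that holds ACTB, the gene of cytoplasmic beta-actin, and RAC1, a GTPase of the actin cytoskeleton, both in 7p22.1. Its 72 used bins had a level of 1.27 ± 0.263, above 1 in 23 cells, with a lowest cell of 0.803 (cell 3), a median of 1.25 and a highest of 1.90 (cell 8). Without cell 22 it was 1.26 ± 0.256. Over the rest of the short arm the log2 ratio was 0.61 ± 0.32, and it was above 0 in 24 cells. The band was not uniform. 7p22.1 (27 bins, 4500001 to 7300000) had the highest level of the sub-bands at 1.67 ± 0.409, above 1 in 25 cells, with cells from 0.949 to 2.82 and a median of 1.62. 7p22.3, the terminal sub-band, stood at 1.17 ± 0.352 and was on neither side (above 1 in 17 cells), but it depended on the bins used. Without bins of low expectation it was above 1 in 21 cells at 1.22 ± 0.357, and without bins within 0.5 Mb of a band edge it was at 0.966 ± 0.378 and above 1 in 10. 7p22.2, between them, was below 1 in 22 cells, at 0.820 ± 0.453, or 0.744 without cell 22, where it stood at 2.72. 7p22.2 was lower than 7p22.1 in 25 cells, by a mean log2 ratio of -1.12 ± 0.68.

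7q22 includes MCM7, a subunit of the replicative helicase, and the cytochrome P450 3A genes of drug metabolism in 7q22.1, and PIK3CG, a phosphoinositide kinase of blood cells, in 7q22.3. Its 93 used bins had a level of 1.39 ± 0.312, above 1 in 23 cells, with cells from 0.547 (cell 22) to 2.04 (cell 6) and a median of 1.36. Without cell 22 the level was 1.43 ± 0.265. Over the rest of the long arm the log2 ratio was 0.66 ± 0.33, above 0 in every cell except cell 22. Without that cell it was 0.71 ± 0.20. 7q22.1 (57 bins, 98000001 to 103800000) stood at 1.49 ± 0.416 and 7q22.3 (29 bins, 104500001 to 107400000) at 1.39 ± 0.359, above 1 in 23 and 24 cells. The log2 ratio between these 2 sub-bands was 0.10 ± 0.47, within the spread. The thin dark sub-band 7q22.2 between them (7 bins) was below 1 in 22 cells at 0.671 ± 0.395, a call lost in 3 of 7 alternative settings, and lower than 7q22.1 in 25 cells.

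7p22 and 7q22 did not differ beyond their spread. The log2 ratio of 7p22 over 7q22 was -0.12 ± 0.52, higher in 9 cells and lower in 17, or -0.19 ± 0.39 without cell 22. Across the 26 cells their levels showed little correlation, with r = -0.16 (rho = -0.09), or r = 0.01 without cell 22. No interval was computed, and so few cells cannot exclude a moderate relation of either sign. Both levels share a denominator and the depth of the cell.

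The deserts were taken as 6 gene-poor bands: 7p21.3, 7q11.22, 7q21.11, 7q31.31, 7q31.33 and 7q35. Their 322 bins had a level of 0.583 ± 0.112 and were below 1 in all 26 cells, with a lowest cell of 0.393 (cell 11), a median of 0.572 and a highest of 0.912 (cell 22). Without cell 22 they stood at 0.569 ± 0.091. 7p22 was higher than the deserts in all 26 cells, by a mean log2 ratio of 1.12 ± 0.44 or 2.18-fold (1.13 ± 0.44 without cell 22), with the smallest difference in cell 26 at 0.31. In cell 1, the most deeply sequenced, 7p22 stood at 1.22, 7q22 at 1.36 and the deserts at 0.572. 7q22 was higher in 25 cells, by 1.24 ± 0.49 or 2.37-fold. The exception was cell 22 at -0.74. Without cell 22 the mean was 1.32 ± 0.27, with the lowest of the other cells, cell 7, at 0.89. Of the sub-bands, 7p22.1 was 2.83-fold and 7q22.1 2.49-fold above the deserts. For 7q22.2 the log2 ratio over the deserts was -0.04 ± 1.03, higher in 14 cells and lower in 12. With this spread it does not show that they are equal. The mean level of 7q22.2 was 0.671 against 0.583, and counts summed over cells gave 0.684 against 0.587.

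**Figure D3:**
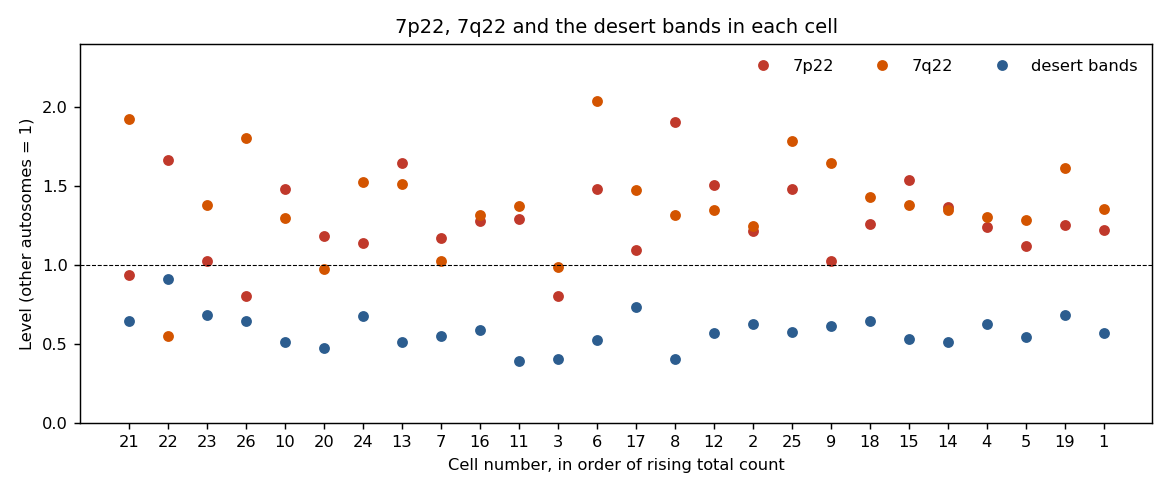
Level (y axis, other autosomes = 1) of 7p22, 7q22 and the desert bands in each of the 26 cells, ordered on the x axis by rising total count. The desert points lie below 1 in every cell, and below both other bands in every cell but cell 22, where 7q22 at 0.547 is under the deserts at 0.912.

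The 6 deserts differed among themselves. 7q31.31, which holds KCND2, a potassium channel gene, was lowest at 0.487 ± 0.2. 7q21.11, the longest of them with 89 bins and home to semaphorin 3 genes of axon guidance, stood at 0.507 ± 0.181. 7q35, which holds much of CNTNAP2, a very long neuronal adhesion gene, stood at 0.531 ± 0.291, or 0.485 without cell 22. 7q31.33, with the glutamate receptor gene GRM8, was at 0.561 ± 0.177. Higher were 7p21.3 at 0.667 ± 0.201 and 7q11.22, the AUTS2 band, at 0.732 ± 0.222. Neighbours in this order differ by less than the SD of either. Each of the 6 was below 1 in at least 22 cells.

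Other bands reached or passed the level of 7p22 and 7q22. 7q11.23 had the highest level of the chromosome at 1.96 ± 0.415, above 1 in 25 cells, with cells from 0.964 (cell 23) to 2.60 (cell 26) and a median of 2.00. It was higher than 7q22 in 25 cells and higher than 7p22 in 23. It was also higher than its neighbour 7q11.22 in all 26 cells, 2.74-fold on average, and than 7q21.11 on its other side in all 26, 3.96-fold. Of its 45 used bins 15 had an expectation under 0.5 times the genome's median and 3 further bins had no value. Other bins of the band were at 0 in every cell and were left out, as everywhere, which raises its mean ratio. Between 74000000 and 75000001 fewer than 5 bins were used, so no 1 Mb window is given there. Without the 15 the level was 2.23 ± 0.497 and above 1 in all 26 cells.

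7q32 was the other raised stretch. It includes IRF5, a transcription factor of the interferon response, in 7q32.1 and MEST, an imprinted gene, in 7q32.2. Its 55 bins stood at 1.41 ± 0.252, above 1 in every cell except cell 22 at 0.536, with a median of 1.45 and a highest cell of 1.70. 7q32.1 stood at 1.57 ± 0.36, 7q32.2 at 1.45 ± 0.48 and 7q32.3 at 1.23 ± 0.296, so neighbouring sub-bands differed by less than these SDs. Without bins within 0.5 Mb of a band edge 7q32.3 was at 0.963 ± 0.313 and on neither side. 7q32 was higher than 7q31 in all 26 cells, 2.21-fold on average. 7q36.1, where the histone methyltransferase gene EZH2 lies, was above 1 in 21 cells at 1.25 ± 0.314, and in 19 with thinned counts, which ends its call. It was 2.52-fold above 7q35 (2.73-fold without cell 22), and higher in every cell but cell 22. It was 2.15-fold above 7q36.2, and higher in all 26 cells.

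On the short arm the bands nearest to the rule were 7p15.2, the band of the HOXA cluster of developmental transcription factors, at 1.28 ± 0.33 (above 1 in 20 cells), 7p14.2 at 1.21 ± 0.392 (18 cells) and 7p13 at 1.15 ± 0.361 (19 cells). 7q34, with the kinase gene BRAF and the T cell receptor beta genes, stood at 1.23 ± 0.295 and was above 1 in 20 cells. Without cell 22, 7p15.2 and 7q34 passed the rule. The bands between 7p13 and the centromere were low. 7p12.1 stood at 0.542 ± 0.216, below 1 in 25 cells, and 7p11.2, the band of the growth factor receptor gene EGFR, at 0.664 ± 0.323, below 1 in 23 cells. 7p12.2, the band of IKZF1, a transcription factor of blood cell development, was below 1 in 21 cells at 0.777 ± 0.306, a call lost with summed counts (20 cells) and with thinned counts (17 cells). This band was not uniform. Its window at 49000001 to 50000000 stood at 0.402. The next, at 50000001 to 51000000 and reaching into 7p12.1, stood at 1.197 and was above 1 in 16 cells. IKZF1 was not placed in either window, so the band level is not a level of the gene. On the other side of the centromere 7q11.21 was on neither side at 0.942 ± 0.287, and 28 of its 47 bins had a low expectation.

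7q31 was low as a whole. Its 197 bins stood at 0.641 ± 0.16, below 1 in 25 cells, though the window at 112000001 to 113000000 in 7q31.1 was at 1.19 and above 1 in 19 cells. The light sub-band 7q31.2, with the chloride channel gene CFTR and the receptor kinase gene MET, was at 0.812 ± 0.281 (below 1 in 24 cells, and in 20 without bins within 0.5 Mb of a band edge, which ends its call), and the light sub-band 7q31.32 at 0.572 ± 0.17 (25 cells). 7q21 was as low, at 0.622 ± 0.204 over 205 bins, or 0.588 ± 0.115 without cell 22. Within it the light sub-band 7q21.2, which holds CDK6, a cell cycle kinase, was on neither side at 0.984 ± 0.455.

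G-band stain went with the level as a class. Light bands (gneg, 680 bins) stood at 1.14 ± 0.117 and the darkest (gpos75 and gpos100, 661 bins) at 0.664 ± 0.146. The log2 ratio was 0.81 ± 0.30, or 1.75-fold, and above 0 in 25 cells. Cell 22 was the exception at -0.43, and the next lowest was cell 23 at 0.46. Without cell 22 the log2 ratio was 0.86 ± 0.18. With 7p22 and 7q22 left out the log2 ratio was 0.71 ± 0.28, so the difference did not rest on these bands. By single class, gpos25 to gpos100, the levels stood at 0.857 ± 0.163 (gpos25, 54 bins), 0.885 ± 0.185 (gpos50, 140 bins), 0.685 ± 0.143 (gpos75) and 0.616 ± 0.172 (gpos100). Single light bands did not follow the class: of 22, 7 were above 1, 7 below and 8 on neither side. Of the 10 gpos75 bands 9 were below 1 and of the 3 gpos100 bands all 3.

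The bands were also set beside whole chromosomes of high and low level. 7p22.1 was higher than the mean of chromosome 19, the most gene-dense chromosome, in 15 cells and lower in 11 (log2 ratio 0.05 ± 0.39), and 7q11.23 was higher in 20 cells (0.29 ± 0.45). 7p22 as a whole was lower than chromosome 19 in 24 cells (-0.33 ± 0.50) and lower than chromosome 17 in 17 (-0.20 ± 0.38). 7q22 as a whole was lower than chromosome 19 in 18 cells (-0.21 ± 0.45) and close to chromosome 17 (-0.08 ± 0.27, lower in 17 cells). The deserts were lower than the whole of chromosome 4, a gene-poor chromosome, in 24 cells (-0.31 ± 0.25) and lower than chromosome 13 in 23 (-0.36 ± 0.27). A part of 1 chromosome picked for its genes is here set against whole chromosomes, which hold richer and poorer parts of their own.

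In windows of 1 Mb the level changed sharply between some neighbours, also within single bands. Of 154 windows with at least 5 used bins, 21 (13.6%) were above 1 in at least 21 cells, against a background of 20.7% of windows over all chromosomes. Below 1 were 72 (46.8%), against a background of 42.6%. The highest window lay in 7q11.23 at 73000001 to 74000000, at 2.31 ± 0.642, above 1 in all 26 cells. The lowest lay in 7p21.3 at 9000001 to 10000000, at 0.299 ± 0.208, below 1 in all 26.

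**Figure D4:**
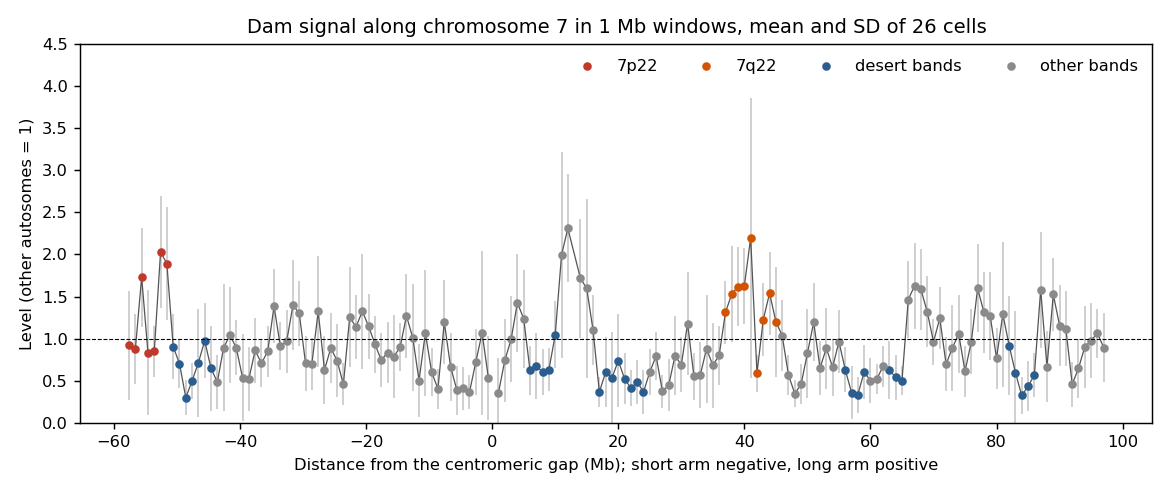
Level (y axis, other autosomes = 1) of 154 windows of 1 Mb along chromosome 7, by distance from the centromeric gap in Mb (x axis, short arm negative). Points are means and lines are SDs of 26 cells; 7p22, 7q22 and the desert bands are coloured. Windows of the desert bands run from 0.299 to 1.04, and the highest window, at 2.31, is in 7q11.23.

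Of the 5 largest steps between neighbouring windows, 3 lay near a limit between bands and 2 inside a band. At 103000000, inside 7q22.1, the level went from 2.20 ± 1.66 to 0.587 ± 0.222, lower in 25 cells. The high side of that step is uncertain, since 3 of its 9 bins had a low expectation; without such bins it was 1.84 ± 0.837 and the log2 step -1.63 in place of -1.90. At 78000000, near the limit of 7q11.23 and 7q21.11, it went from 1.10 ± 0.415 to 0.367 ± 0.182, lower in all 26 cells. At 127000000, from 7q31.33 into 7q32.1, it went from 0.499 ± 0.172 to 1.46 ± 0.457, higher in all 26. At 50000000, inside 7p12.2, it went from 0.402 ± 0.238 to 1.197 ± 0.497, higher in 25 cells, and at 148000000, from 7q35 into 7q36.1, from 0.567 ± 0.263 to 1.58 ± 0.687, higher in 25. The windows of 7q22.1 below the step, from 98000001 to 102000000, held levels between 1.31 ± 0.369 and 1.63 ± 0.451.

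Bins were next counted by how many cells marked them. Positive (a ratio of 1 or more) in at least 80% of cells were 56 bins of chromosome 7 (3.65%), against a background of 5.61% of used bins over all chromosomes. Positive in at most 20% of cells were 546 (35.5%), near the background of 33.5%. By the share positive in most cells chromosome 7 was 16th of 22 chromosomes with values, and by the share positive in few cells 10th. In 7p22 and 7q22 together lay 20 of the 56 bins (35.7%), on 10.7% of the used bins, and 7q11.23 held another 11 and 7q32 another 8. The deserts held none of the 56 and 180 of the 546 (32.97%, on 21.0% of the used bins). These counts depend on depth and on the value that defines positive. Leaving out the 6 shallowest cells gave 94 bins positive in most cells, and thinning to 20000 counts per cell gave 319 positive in few.

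**Figure D5:**
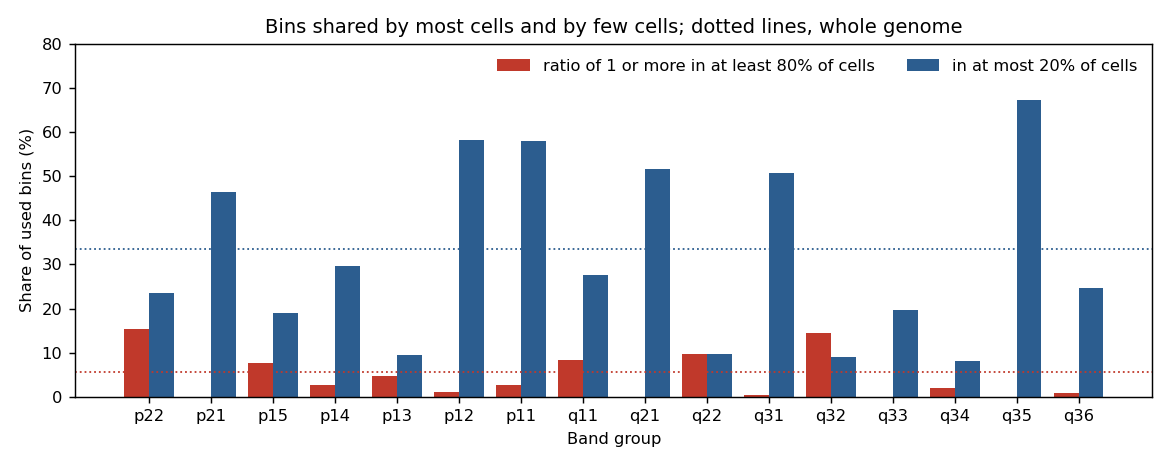
Share of used bins (y axis, %) in each band group (x axis) with a ratio of 1 or more in at least 80% of cells (red) and in at most 20% of cells (blue), with the shares over all chromosomes as dotted lines (5.61% and 33.5%). 7p22 and 7q32 have the tallest red bars, at 15.28% and 14.5%, and 7q35 the tallest blue bar at 67.4%.

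The blocks and bins named next were picked by their own values, so their levels are descriptions. Bins positive in most cells were scattered: they formed 42 blocks, 33 of them of 1 bin, and none was longer than 4. The 2 blocks of 4 bins lay in 7p22.1 at 5400001 to 5800000, with a level of 3.25 ± 1.201 from 673 counts, and in 7q11.23 at 73400001 to 73800000, with 2.95 ± 1.00 from 487 counts. In the block of 7p22.1 the lowest cell was at 1.05, the median at 3.08 and the highest at 6.23. A block of 3 bins lay in 7p22.1 at 6200001 to 6500000 (2.57 ± 1.06). Of the blocks of 2 bins, the first by coordinate were in 7p15.2 at 27100001 to 27300000 (2.50 ± 1.08) and in 7q11.23 at 75900001 to 76100000 (3.44 ± 1.96, with cell 23 at 0).

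Bins positive in few cells lay in longer stretches, but they were also more, 546 against 56, which lengthens runs by number alone. The run lengths that such numbers would give were not computed. These 546 bins formed 221 blocks, 110 of them of 1 bin and 10 of at least 10 bins. The longest had 14 bins, in 7q21.11 at 78200001 to 79600000 (0.306 ± 0.176), in 7q31.31 at 118400001 to 119800000 (0.306 ± 0.242) and in 7q35 at 144900001 to 146300000 (0.317 ± 0.184), each in a band of the deserts. Summed over cells they held 266, 236 and 250 counts, which gives levels of 0.336 (exact 95% Poisson interval 0.297 to 0.379), 0.328 (0.288 to 0.373) and 0.318 (0.280 to 0.360). Of the blocks of 13 bins, of which there were more, the first by coordinate were in 7p21.1 at 18400001 to 19700000 (0.480 ± 0.525, with cell 22 at 2.93) and across 7p12.3 and 7p12.2 at 48500001 to 49800000 (0.361 ± 0.202). The intervals cover counting error only. If the counts hold reads from PCR copies of one fragment, which is not known, these are not independent.

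Single bins were ranked among the 1433 whose expectation was at least 0.5 times the genome's median. Of the 10 highest, 5 lay in 7q11.23, led by 74000001 to 74100000 at 4.76 ± 3.10 (positive in 24 cells) and 72900001 to 73000000 at 4.19 ± 2.395 (25 cells). The adjacent bins at 73600001 to 73800000 averaged 3.81 ± 1.55, and those of 7p22.1 at 5500001 to 5700000 averaged 3.77 ± 1.48. The others were in 7q36.3 at 157100001 to 157200000 (3.34 ± 2.35), in 7p14.1 at 38300001 to 38400000 (3.11 ± 1.69), in 7p15.2 at 27200001 to 27300000 (3.04 ± 1.64) and in 7q11.23 at 76000001 to 76100000 (4.06 ± 3.48). None of the 10 lay in 7q22. The next bin in rank stood at 2.94.

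The 10 lowest bins lay between 0.0489 ± 0.163, in 7p21.3 at 9600001 to 9700000, and 0.146 ± 0.431, in 7q31.31 at 119600001 to 119700000, each with counts in 3 to 6 cells. Desert bands held 5 of them, 2 in 7p21.3 and 1 each in 7q21.11, 7q31.31 and 7q35. The rest were 2 bins of 7p11.2 and 1 each of 7p12.1, 7p14.3 and 7q31.1. At counts this low the order among them is not resolved, and the next bin stood at 0.146 too.

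The ends of the chromosome showed no common pattern. The terminal 5 Mb of the short arm stood at 1.04 ± 0.300 and were above 1 in 13 cells, and those of the long arm at 0.922 ± 0.258 and above 1 in 8, against 0.898 ± 0.0976 in the interior. The log2 ratio of both ends over the interior was 0.11 ± 0.28, smaller than the spread between cells, and above 0 in 16. Most of 7p22.1, the high sub-band, lies beyond the terminal 5 Mb.

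Unevenness along the chromosome was measured as the SD of the log2 levels of the 1 Mb windows, averaged over cells. It was 0.66 on chromosome 7, 18th of 22 chromosomes, against 0.75 on chromosome 3, 0.68 on chromosome 5 and 0.70 on the X chromosome, which are near it in length or level. It was 18th with thinned counts and without bins of low expectation too.

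The spread of counts between cells was measured along chromosome 7. Over the 154 windows the heterogeneity chi-square of the counts, with each cell scaled to its own total on the chromosome, was 2.59 times its degrees of freedom, and 2.17 without cell 22. Independent counts would give about 1. Reads from PCR copies would raise this ratio, but whether the counts hold such copies is not known, and their part in it was not tested. Chromosomes 3 and 5 gave 2.80 and 2.81, and the X chromosome 2.28. With cell 22 left out, chromosomes 3 and 5 gave 2.13 and 2.15, and the X chromosome 1.96. By this ratio chromosome 7 was 14th of 22 chromosomes with all cells and 7th without cell 22. Per window of chromosome 7 the ratio ran from 0.877 to 7.36 with a median of 2.30. All 9 windows at 5 or more had their largest deviation in cell 22, and without that cell none reached 5. The largest without it was 4.84, in 7q34 at 142000001 to 143000000. Depth went only weakly with the contrasts. Across the 26 cells the log2 total count and the log2 ratio of 7p22 over deserts had r = 0.19 (rho = 0.22), and that of 7q22 had r = 0.20 (rho = 0.06), or -0.08 without cell 22. The 2 contrasts share their denominator, and with each other they had r = 0.37 (rho = 0.46).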

How the data were processed

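The deposited file holds the authors' linear ratio of observed over expected signal per 100 kb bin and cell, read so from its name and from cell means near 1. Per the submitters' processing notes, cutadapt and Bowtie2 2.1.0 and hg19 were used. How reads were counted and bins masked, and what the expectation is, the sources used here do not give. Per the labels' protocols, amplification took 21 extension steps.

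From these ratios, whole counts were recovered as the smallest whole numbers per bin (tolerance 0.001), with totals from 20182 to 178941 per cell. In simulated counts 99.99% of 26281 bins were recovered, and all 6 bands given a shift were placed on the right side, with 36 of 36 others on neither. These were Poisson counts with levels shared by all cells, so their only spread between cells was counting error. The spread in the real counts was larger, and the simulation does not show how the side rule acts under it. The arms were divided at the centromeric gap, which has no used bin (58100001 to 61500000). Unevenness used log2 of the window levels after averaging over cells, with nothing added. Only its per-cell values, whose SD set the tolerance for its alternatives, had 0.1 added before log2. Named regions were the bands of 7p22, 7q22 and the deserts, the 5 longest blocks of each kind, the 10 highest and 10 lowest bins and the 5 largest steps; further bands were added after their values were seen. Members, bands and lists were chosen with earlier results of these data known. Gene positions, GC content and GATC density in hg19 were not used here. No alternative was added later. Computations ran in Python 3.11.15 with scipy 1.17.1, pandas 2.3.3 and numpy 2.4.6.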

Additional observations from a re-analysis of the deposited data

How the results depend on the processing

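Of 94 recomputed values, 87 stayed within 1 SD between cells or, for counts, within 1.5 times the main count, and none changed sign. For the 3 alternatives of the spread of counts between cells this rule says little, because its tolerance was close in size to the ratio itself. That ratio fell from 2.59 to 2.11 without the 6 shallowest cells, to 2.17 without cell 22 and to 1.89 with thinned counts. How far it depends on depth was not tested. Over all settings run the log2 ratio of 7p22 over the deserts stayed between 1.06 and 1.23, that of 7q22 between 1.18 and 1.47, that of light over dark bands between 0.76 and 0.91, and that of the short over the long arm between -0.08 and -0.03. The chromosome level stayed between 0.894 and 0.916. Between 7 and 10 bands were above 1 and between 19 and 23 below. The count of bins positive in most cells was 94 when the 6 shallowest cells were left out. A lower bound for positive, 0.5, gave 197 such bins and a bound of 2 gave 4. Bins positive in few cells came to 319 with thinned counts, to 113 with the bound at 0.5 and to 1211 with it at 2. With thinned counts 12 windows of 1 Mb were above 1, against 21. The cause was not tested, beyond the changed threshold and the smaller counts themselves. Among the bands above 1, 7q32.3 lost its side with thinned counts and without bins within 0.5 Mb of a band edge, and 7q36.1 with thinned counts; the other 6 kept theirs in every setting run. Of the bands under 1, 7p12.2, 7q21.12, 7q22.2 and 7q31.2 lost their side in at least 1 setting. No paired analysis was possible because the cells form 1 group.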
